A study of Mus musculus with 5 samples.

Results

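The comparison set the teratoma labelled P5_2iL_F against the muscle library that serves as the control of the series. Both came from mice of the strain C57BL/6x129S6, and each side is 1 library of genomic DNA profiled by reduced representation bisulfite sequencing, which reads cytosine methylation mainly in CpG-rich DNA. The teratoma, a tumour that holds tissues of several germ layers, arose after embryonic stem cells had been injected into tetraploid embryos. P5_2iL_F is the name of the culture condition of those stem cells, and the labels do not spell it out. The labels give no age, no number of animals and no kind of muscle. The series holds 5 libraries, of which the other 3 are teratomas of the conditions P5_2iL, P5_a2iL_1 and P5_LCDM_1, and their levels are given beside some results. The cytosines compared were the 3564094 on chromosomes 1 to 19, X and Y that both libraries list, out of 5318676 listed for P5_2iL_F and 4013916 for muscle. They were averaged over 180152 tiles of 1 kb with 5 or more shared cytosines, over 14434 windows at the ends of the 21887 protein coding genes of the reference annotation, and over 13060 gene bodies with 20 or more shared cytosines. A window or tile was called higher or lower where its mean level in P5_2iL_F was 25 percentage points or more above or below that of muscle. With 1 library a side and no read counts in the files, no test could be made, the read depth behind a value is unknown, and every difference is between these libraries and not between groups of animals.

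DNA methylation in mammals sits mainly on the cytosine of the dinucleotide CG. It is high over most of the genome and low at CpG islands, the CG-rich stretches at which many genes start. Starts that are poor in CG are often methylated in tissues that do not use the gene and free of methylation in cells that do. The starts of tissue-specific genes thus carry a mark of cell type. Both samples are bulk tissue, so a lower share of cells of a type and a lower level within those cells cannot be told apart.

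The promoters of 4 genes that were higher and 4 that were lower in P5_2iL_F show what was read. They are given 5′ to 3′ on the strand of the gene, from 250 bases before to 50 bases after the annotated start, from RefSeq on GRCm38.p6 (mm10). Capitals mark each CG with a level in both libraries, and a CG in lower case has none. The first is Musk (chr4:58285712-58286011, plus strand), the agrin-activated receptor kinase of the neuromuscular junction. The second is Pvalb (chr15:78206351-78206650, minus strand), which encodes the calcium buffer parvalbumin of fast muscle fibres.

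Musk: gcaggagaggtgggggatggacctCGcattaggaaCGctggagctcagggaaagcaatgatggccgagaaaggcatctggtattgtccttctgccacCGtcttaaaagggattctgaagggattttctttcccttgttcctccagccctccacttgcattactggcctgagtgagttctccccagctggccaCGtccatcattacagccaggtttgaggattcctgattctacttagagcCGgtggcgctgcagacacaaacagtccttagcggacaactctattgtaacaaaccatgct
Pvalb: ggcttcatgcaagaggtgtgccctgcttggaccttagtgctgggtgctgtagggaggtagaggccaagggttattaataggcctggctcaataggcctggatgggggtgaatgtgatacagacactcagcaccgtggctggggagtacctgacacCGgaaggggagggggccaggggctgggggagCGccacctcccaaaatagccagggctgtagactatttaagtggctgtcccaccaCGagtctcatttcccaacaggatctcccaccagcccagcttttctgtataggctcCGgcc

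At the 5 measured CG sites of the Musk promoter, P5_2iL_F ran between 86.1% and 100% and muscle between 10% and 26.7%. At the 4 sites of Pvalb, P5_2iL_F ran between 50% and 100% and muscle between 0% and 25%. The levels of the libraries did not overlap at either promoter.

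Lmod1 (chr1:135324563-135324862, plus strand) encodes a leiomodin, an actin filament nucleator of smooth muscle. Mcts2 (chr2:152686898-152687197, plus strand) is an imprinted retrogene, expressed from the paternal copy.

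Lmod1: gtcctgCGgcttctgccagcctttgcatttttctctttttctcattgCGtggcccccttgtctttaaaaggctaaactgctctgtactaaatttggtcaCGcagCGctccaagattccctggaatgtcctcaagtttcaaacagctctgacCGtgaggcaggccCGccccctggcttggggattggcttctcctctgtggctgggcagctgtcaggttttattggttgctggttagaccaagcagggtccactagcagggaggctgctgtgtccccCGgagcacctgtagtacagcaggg
Mcts2: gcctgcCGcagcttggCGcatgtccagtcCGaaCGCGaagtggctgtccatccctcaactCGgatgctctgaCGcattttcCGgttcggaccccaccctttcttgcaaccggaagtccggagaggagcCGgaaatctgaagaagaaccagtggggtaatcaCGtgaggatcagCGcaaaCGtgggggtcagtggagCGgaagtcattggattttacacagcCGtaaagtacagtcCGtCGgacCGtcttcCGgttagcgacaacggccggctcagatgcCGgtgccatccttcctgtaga

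All 7 CG of the Lmod1 promoter were measured, at 28.3% to 93.8% in P5_2iL_F and 0% to 5% in muscle. At 19 sites of Mcts2, P5_2iL_F ran between 66.4% and 100% and muscle between 0% and 71.4%, and 18 of the 19 sites were 25 points or more higher. The mean over the Mcts2 promoter was 91.1% in P5_2iL_F and 46.1% in muscle.

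Arhgef18 (chr8:3353187-3353486, plus strand) encodes a guanine nucleotide exchange factor, and Tnfsf14 (chr17:57194132-57194431, minus strand) the lymphocyte cytokine LIGHT. Slc26a9 (chr1:131743772-131744071, plus strand) encodes an epithelial chloride transporter, and Vav1 (chr17:57278850-57279149, plus strand) the exchange factor for Rac in blood cells.

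Arhgef18: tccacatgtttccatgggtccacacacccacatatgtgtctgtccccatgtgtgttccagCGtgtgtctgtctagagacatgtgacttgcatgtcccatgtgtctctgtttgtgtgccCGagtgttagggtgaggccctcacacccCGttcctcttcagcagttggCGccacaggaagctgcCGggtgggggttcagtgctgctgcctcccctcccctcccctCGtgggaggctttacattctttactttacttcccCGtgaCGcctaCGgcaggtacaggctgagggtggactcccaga
Tnfsf14: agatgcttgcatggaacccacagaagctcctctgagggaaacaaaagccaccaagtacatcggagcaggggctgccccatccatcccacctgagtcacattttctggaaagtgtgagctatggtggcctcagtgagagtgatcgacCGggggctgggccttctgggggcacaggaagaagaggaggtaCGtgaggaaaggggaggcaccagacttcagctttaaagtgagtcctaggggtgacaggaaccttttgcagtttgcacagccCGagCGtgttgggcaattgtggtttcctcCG
Slc26a9: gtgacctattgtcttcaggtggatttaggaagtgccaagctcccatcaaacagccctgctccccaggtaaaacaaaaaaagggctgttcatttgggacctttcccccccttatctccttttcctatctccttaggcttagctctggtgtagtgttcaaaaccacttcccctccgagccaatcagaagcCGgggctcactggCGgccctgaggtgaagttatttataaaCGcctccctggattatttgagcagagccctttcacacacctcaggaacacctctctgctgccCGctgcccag
Vav1: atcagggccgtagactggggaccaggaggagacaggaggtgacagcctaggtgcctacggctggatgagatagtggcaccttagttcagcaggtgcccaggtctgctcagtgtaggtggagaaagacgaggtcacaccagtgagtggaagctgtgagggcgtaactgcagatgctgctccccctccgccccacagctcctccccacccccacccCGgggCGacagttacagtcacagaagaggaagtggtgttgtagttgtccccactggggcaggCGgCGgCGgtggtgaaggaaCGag

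The mean level went the opposite way at these 4 promoters. The 9 sites of Arhgef18 lay at 0% to 6.25% in P5_2iL_F and 49.3% to 83.7% in muscle. The 5 sites of Tnfsf14 lay at 0% to 3.57% in P5_2iL_F and 25% to 100% in muscle. The 4 sites of Slc26a9 lay at 0% to 20% in P5_2iL_F and 80.4% to 100% in muscle. None of these 3 promoters had a site at which the libraries overlapped. At Vav1 the sites lay at 7.14% to 14.3% in P5_2iL_F and 0% to 60% in muscle, and 3 of its 6 sites were 25 points or more lower. At 1 site P5_2iL_F was above muscle. The mean of the Vav1 promoter was 7.79% in P5_2iL_F and 24.5% in muscle, which is less than 25 points apart.

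Over all shared cytosines the mean level was 49.9% in P5_2iL_F and 43.7% in muscle, a difference of 6.15 points. A level over 80% was listed for 42.6% of them in P5_2iL_F and 33.1% in muscle. A level between 20% and 80% was listed for 14.8% in P5_2iL_F and 20.5% in muscle, and a level under 20% for 42.6% in P5_2iL_F and 46.4% in muscle. Of the 180152 tiles, 26653 were higher in P5_2iL_F, which is 14.8%, and 4991 were lower, which is 2.77%. Within 5 points of the threshold there were 5928 higher tiles inside it and 8202 outside it, and 1210 lower tiles inside it and 1850 outside it.

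**Figure D1:**
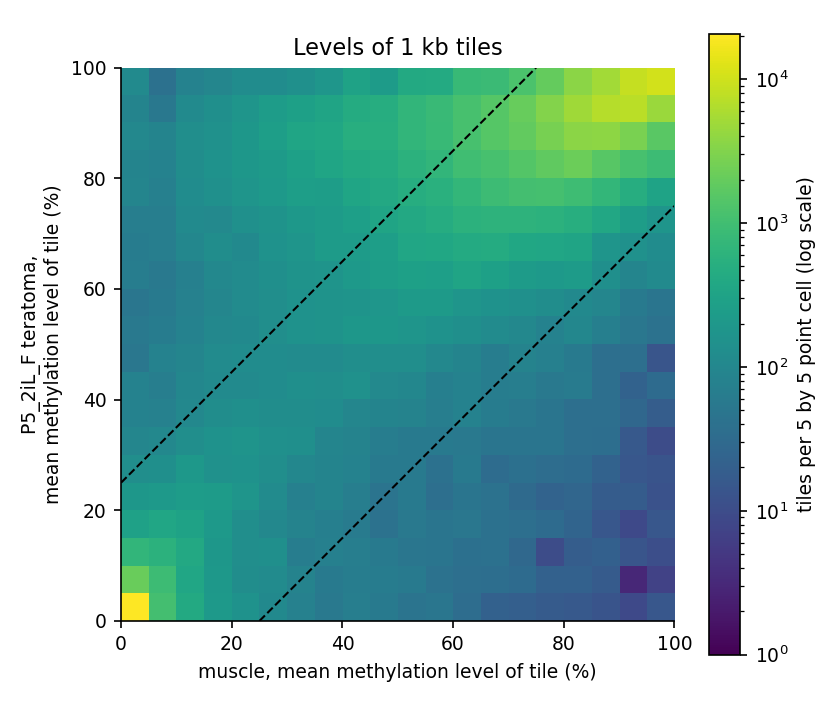
Mean methylation level (%) of 1 kb tiles in P5_2iL_F (vertical axis) and in muscle (horizontal axis). Colour gives the number of tiles in each cell of 5 by 5 points on a log scale, and the dashed lines mark a difference of 25 points. The 26653 tiles above the upper line outnumber the 4991 below the lower line.

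Higher tiles mostly joined an intermediate level in muscle to a high level in P5_2iL_F. Of the higher tiles, 82.0% were between 20% and 80% in muscle and 18% were under 20%. Of the 70004 tiles between 20% and 80% in muscle 31.2% were higher, and of the 35806 under 20% 13.4%. The threshold lets no tile over 80% in muscle be higher and no tile under 20% be lower. Among tiles under 20% in muscle, 1643 were over 80% in P5_2iL_F, and 220 tiles were under 20% in P5_2iL_F and over 80% in muscle. Of the lower tiles, 60.2% were between 20% and 80% in muscle and 39.8% were over 80%.

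The plus and minus strands of the same CG gave the only measure of error that the files allow, and it says nothing of the spread between animals. In 117813 tiles with 3 or more CG measured on each strand, the strands of P5_2iL_F were 25 points or more apart in 4.02% of tiles, and those of muscle in 9.98%. When opposite strands of the libraries were compared, the share was 19.7% or 19.5%. The strands lay further apart in muscle than in P5_2iL_F. On each strand taken alone, 10657 tiles were higher and 2012 lower, and 340 were called in opposite directions.

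The differences lay mainly in tiles with few shared cytosines. The count of shared cytosines stands for CpG density here, and a tile with few may be poor in CG or thinly covered by the libraries. Tiles with 5 to 9 shared cytosines averaged 79.5% in P5_2iL_F and 70.2% in muscle, and 17.6% of them were higher and 3.49% lower. Tiles with 40 to 79 averaged 18.5% in P5_2iL_F and 16% in muscle, with 3.50% higher and 0.713% lower. Tiles with 80 or more averaged 4.29% in P5_2iL_F and 3.27% in muscle, with 0.751% higher and 0.256% lower. Tiles with few cytosines also average fewer values, which widens their error, and the part of this in the counts was not tested. The mean difference, which does not depend on the threshold, was 9.32 points in the sparsest class and 1.01 points in the densest.

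**Figure D2:**
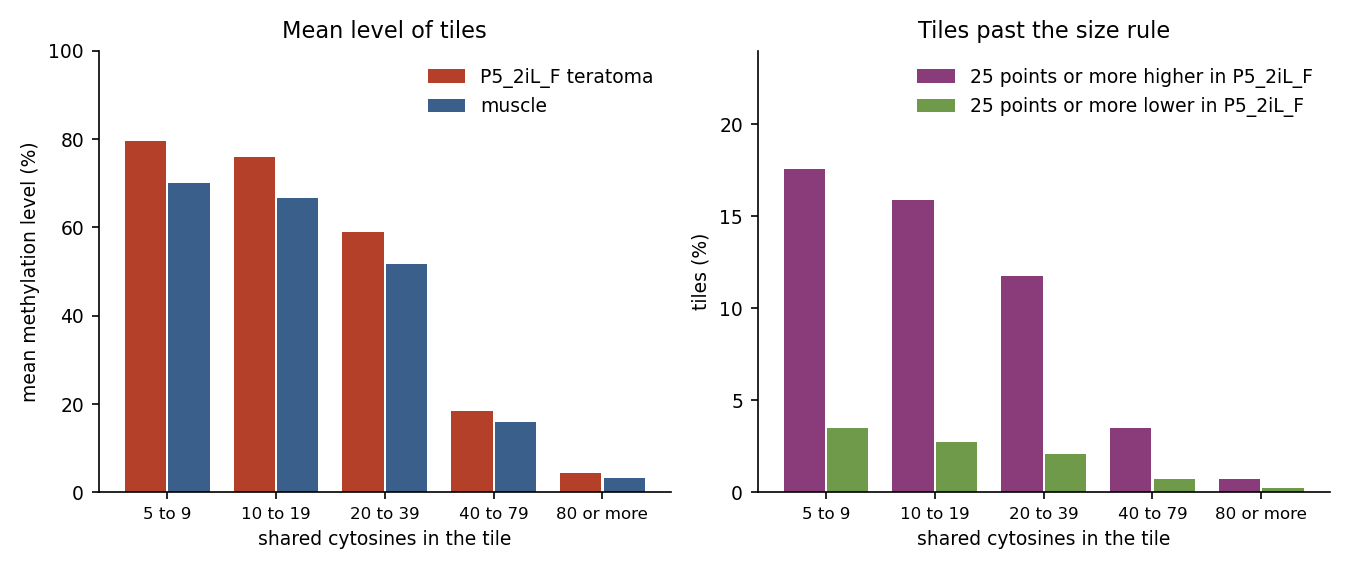
Tiles grouped by their number of shared cytosines (horizontal axes). The left panel gives the mean methylation level (%) in P5_2iL_F and muscle, and the right panel the share of tiles (%) 25 points or more higher or lower in P5_2iL_F. Both shares decline from 17.6% and 3.49% in the sparsest class to 0.751% and 0.256% in the densest.

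Gene starts were the part of the genome with the fewest differences. Starts were known only where the promoter reference gave a strand, and 2976 of the 14434 gene end windows were at genes with none. Tiles near such unlisted starts can fall in the farther classes. Under 1 kb from an annotated start, 3.82% of tiles were higher and 0.976% lower, against 12.5% and 3.46% at 1 to 5 kb. From 20 to 100 kb, 17.3% of tiles were higher and 3.14% lower. Tiles inside the bounds of genes and between genes were alike in these shares, at 15.0% and 14.5% higher and 2.91% and 2.60% lower. At a like density the order was the same: among tiles of 20 to 39 cytosines, 2.57% were higher under 1 kb from a start and 13.9% at 5 kb or more. On the X chromosome 8.19% of tiles were higher, and on the autosomes 15.0%.

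Of the 14434 gene ends, 568 were higher in P5_2iL_F, which is 3.94%, and 134 were lower, which is 0.928%. A gene end is a window reaching 1000 bp beyond the gene and 500 bp into it, at whichever end of the gene has more listed cytosines. Of the windows, 10314 lay at a start and 1144 at a 3′ end, of which 2.67% and 12.2% were higher. The other 2976 were at genes with no annotated strand, among them Lmod3, Xirp1, Tnni2, Tcap, Rac2, Itgb2, Tyrobp and Lag3. Besides those marked below, the called windows of Tmem88b, Gm44180, Gm42166, Tnnc2, Tpm3, Eno3, Mb and Rasip1 lay at a 3′ end. So did those of Tie1, Cbfa2t3, Havcr2, Vpreb3, Cd68, Dmrtb1 and Hoxa6. The median difference over all gene ends was 0.23 points. The higher ends had a median level of 81.7% in P5_2iL_F, against 84.9% in P5_2iL, 65.4% in P5_a2iL_1, 63.9% in P5_LCDM_1 and 37.7% in muscle, over the 538 ends with 5 or more cytosines in every library. The 117 such lower ends had a median level of 15.3% in P5_2iL_F, 10.2% in P5_2iL, 44.6% in P5_a2iL_1, 45% in P5_LCDM_1 and 65% in muscle. These ends were chosen by their level in P5_2iL_F and muscle, so those values are a description. Where the start was annotated, promoters with 5 to 9 CG were higher in 11.3% of cases and lower in 2.52%, and promoters with 20 or more CG in 0.729% and 0.220%. The median promoter held 7 CG among the higher starts, 7 among the lower starts and 22 among the rest. The share over all gene ends, set beside the gene lists below, is not matched to them for CG count.

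The ends with the largest differences had to show 25 points or more on each strand, with 10 or more cytosines and 3 or more CG measured on each strand. This held for 239 higher and 55 lower ends. The largest of the higher ones was at the 3′ end of Hoxa3, a homeobox gene of pharyngeal and neck patterning (chr6:52168059-52169558). Its 26 cytosines averaged 97.6% in P5_2iL_F, 98.7% in P5_2iL, 83.3% in P5_a2iL_1, 94.2% in P5_LCDM_1 and 12.1% in muscle. All 4 teratomas were high there and muscle was low.

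Among the next ends were muscle genes. Mamstr encodes a coactivator of the MEF2 factors in muscle, and its start averaged 94.4% in P5_2iL_F and 10.9% in muscle (chr7:45638192-45639691, 34 cytosines). The level of this start was 94.3% in P5_2iL, 64.4% in P5_a2iL_1 and 80.4% in P5_LCDM_1. Lmod3 encodes the leiomodin of skeletal muscle thin filaments and had 86.9% in P5_2iL_F and 4.64% in muscle over 14 cytosines. Over its whole window Musk had 94.8% in P5_2iL_F and 16.4% in muscle. The other teratomas lay between 56.3% and 85.1% at Lmod3 and between 75% and 92.9% at Musk, so muscle was the lowest of the 5 libraries at each of these genes.

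The other higher ends of this group were of several kinds. Prm1, a protamine that packs sperm DNA, had 81.9% in P5_2iL_F and 7.5% in muscle at its 3′ end. Lag3, an inhibitory receptor of T cells, had 79.1% in P5_2iL_F and 6% in muscle. Tmem88b had 86.3% and 1.43%, Zfp119b 78.4% and 4.41%, and Gltpd2 84.8% and 11.5%, in P5_2iL_F and muscle in that order. At Pfn1, the gene of the actin-binding protein profilin 1, the teratomas themselves were far apart. Its window had 73.5% in P5_2iL_F, 65.7% in P5_2iL, 18.6% in P5_a2iL_1, 0% in P5_LCDM_1 and 1.47% in muscle, where P5_LCDM_1 lists 9 of the 17 cytosines.

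The 10 lower ends with the largest differences included Tifab, Itgb2, Ngp and Tnfsf14, genes known from white blood cells. The share of such genes over all gene ends was not counted. Tifab, a regulator of TRAF6 signalling in myeloid cells, had 11.6% in P5_2iL_F and 90.8% in muscle at its start (chr13:56178503-56180002, 23 cytosines). The level of this start was 1.36% in P5_2iL, 51.5% in P5_a2iL_1 and 50.5% in P5_LCDM_1. Itgb2, the beta chain shared by the leukocyte integrins, had 9.83% in P5_2iL_F and 70.5% in muscle. Ngp, a granule protein of neutrophils, had 23.8% in P5_2iL_F and 90.1% in muscle, with 77.3% in P5_a2iL_1 and 87.7% in P5_LCDM_1. Tnfsf14 had 5.47% in P5_2iL_F and 71.9% in muscle over its whole window.

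Other lower ends were Tspoap1, with 1.19% in P5_2iL_F and 73.3% in muscle, and Arhgef18, with 1.25% and 71.6%. Slc26a9 had 27.9% in P5_2iL_F and 87.5% in muscle. Tcl1b1, of the TCL1 family of AKT coactivators, had 11.2% in P5_2iL_F and 70.0% in muscle. The predicted genes Gm44180 and Gm42166 had 11.2% and 21% in P5_2iL_F, and 98.7% and 92.1% in muscle. At all 10 lower ends muscle was the highest of the 5 libraries.

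**Figure D3:**
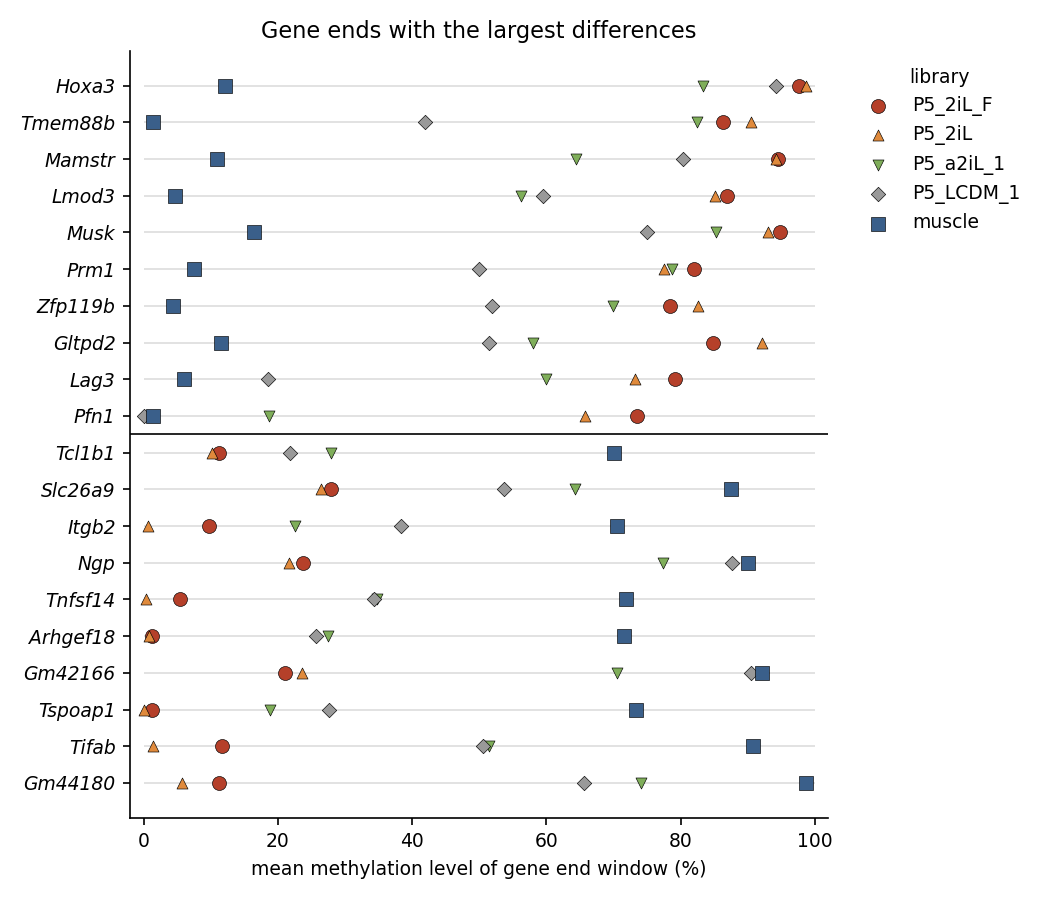
Mean methylation level (%) of the 20 gene ends with the largest differences in the 5 libraries, 1 point a library, with 10 higher ends above the line and 10 lower ends under it. P5_2iL_F lies at 73.5% or more in the upper group and at 27.9% or less in the lower group, and muscle lies at 16.4% or less in the upper group and at 70.0% or more in the lower group.

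Of the gene lists compared, that of the striated muscle sarcomere had the most higher ends. Of 29 measured ends among 45 sarcomere genes, 13 were higher and none lower, or 44.8% higher, beside 3.94% over all gene ends. The median difference was 17.5 points, beside 0.23 over all gene ends. The median level of the list was 72.9% in P5_2iL_F and 20.8% in muscle. Besides Lmod3, the thin filament gene Tnnc2, fast troponin C, had 74.5% in P5_2iL_F and 20.8% in muscle. Its strand pairs differed by 8.33 points on the plus strand and 64.6 on the minus strand. Tnni2, fast troponin I, had 79.8% in P5_2iL_F and 35.8% in muscle, and Tnni1, slow troponin I, 77.1% and 39.6%. Xirp1, an actin-binding protein of the intercalated disc and myotendinous junction, had 81.0% in P5_2iL_F and 27.3% in muscle. Ldb3, a Z-disc protein, had 62.4% in P5_2iL_F and 14.8% in muscle.

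The other sarcomere genes that passed the threshold were Smpx, Tcap, Hspb7, Myh4, Csrp3, Tpm3 and Mylk2, by 28.5 to 41.5 points. The titin-cap gene Tcap had 88.4% in P5_2iL_F and 48.5% in muscle, and the fast myosin gene Myh4 had 77.2% and 39.5%. Several defining muscle genes did not pass. Acta1, skeletal actin, had 24.3% in P5_2iL_F and 15.2% in muscle, and Des, the intermediate filament desmin, had 18.2% and 4.75%. Mylpf, the fast regulatory light chain, was at 0.131% in P5_2iL_F and 0.256% in muscle, and Neb, nebulin, was high on both sides at 95.9% and 90.3%. In muscle the median level of the list was 20.8%, and its members ranged from low, as at Mylpf and Des, to high, as at Neb.

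Energy supply and calcium genes of muscle had 5 higher ends and none lower of 20 measured, or 25% higher. These were Pvalb, with 71.9% in P5_2iL_F and 10.7% in muscle, Eno3, Mb, Jph2 and Ckm. Mb, the oxygen store myoglobin, had 86.1% in P5_2iL_F and 41.5% in muscle, and Ckm, muscle creatine kinase, had 73.8% and 46.8%. The strand pairs of Ckm differed by 11.9 points on the plus strand and 54.4 on the minus strand. Of 15 measured myogenic regulators 3 were higher and none lower, or 20% higher, beside 3.94% over all gene ends. Myf6, a myogenic factor of late muscle, had 88.4% in P5_2iL_F and 45.7% in muscle, and Myf5, its early partner, 67.9% and 38.1%. The strand pairs of Myf5 differed by 23.3 points on the plus strand and 6.67 on the minus strand. Myod1 had 9.09% in P5_2iL_F and 1.89% in muscle, and Myog 80.7% and 69.6%, and neither passed. At the neuromuscular junction 2 of 12 were higher, or 16.7%. They were Musk and the acetylcholine receptor gene Chrna1, which had 92.4% in P5_2iL_F and 52.7% in muscle. The strand pairs of Chrna1 differed by 64.3 points on the plus strand and 9.39 on the minus strand.

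The list of leukocyte signalling and adhesion genes had the most lower ends. Of its 20 measured ends, 7 were lower and 3 higher, beside 0.928% lower over all gene ends, and the median difference was 0.04 points. Rac2, the Rac GTPase of blood cells, had 1.14% in P5_2iL_F, 0% in P5_2iL, 55.6% in P5_a2iL_1, 57.6% in P5_LCDM_1 and 94.4% in muscle, over 8 cytosines. Arhgap30, a GTPase activator, had 0% in P5_2iL_F and 81.0% in muscle over 7. Tyrobp, the signalling adaptor DAP12, had 9.76% in P5_2iL_F and 63.1% in muscle. Dock2, an activator of Rac in leukocytes, had 8.88% in P5_2iL_F and 61.5% in muscle. Itgal, the alpha chain of the integrin LFA-1, had 16.1% in P5_2iL_F and 57.2% in muscle, and Vav1 had 2.78% and 38.9%.

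The 3 leukocyte ends in the other direction were Il16, Selplg and Arhgap9. Il16, a cytokine gene, had 72.0% in P5_2iL_F and 17.8% in muscle. Of 20 lymphocyte ends 6 were lower and 2 higher, or 30% and 10%, beside 0.928% and 3.94% over all gene ends. Havcr2, the checkpoint receptor TIM-3, had 3.33% in P5_2iL_F and 73.6% in muscle, over 5 cytosines. Ripor2 had 18.4% in P5_2iL_F and 75.0% in muscle, the T cell coreceptor gene Cd6 35.7% and 86.4%, and the adaptor Lat 36.3% and 79.5%. Vpreb3 had 73.3% in P5_2iL_F and 100% in muscle. Besides Lag3, the T cell kinase Zap70 was higher, with 89.0% in P5_2iL_F and 57.2% in muscle.

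Blood transcription factors went both ways, with 3 ends higher and 3 lower of 25 measured, or 12% each. Over all gene ends 3.94% were higher and 0.928% lower. Cebpe, a factor of granulocyte maturation, had 11.3% in P5_2iL_F and 67.8% in muscle. Spi1, the myeloid factor PU.1, had 69.8% in P5_2iL_F and 33.3% in muscle, with differences of 7.94 points on the plus strand and 65.2 on the minus strand. Cbfa2t3 had 88.1% in P5_2iL_F and 2.38% in muscle over 12 cytosines, but a window of 500 bp outside to 500 bp inside gave -29.4 points. Mef2b had 33.3% in P5_2iL_F, 0% in P5_2iL, 5.56% in P5_a2iL_1, 0% in P5_LCDM_1 and 0% in muscle over 9 cytosines. Runx3, at 60.7% in P5_2iL_F and 85.7% in muscle, lay on the threshold. Of 15 myeloid ends 2 were higher and 1 lower, or 13.3% and 6.67%. Alox5ap, which activates leukotriene synthesis, had 78.9% in P5_2iL_F and 15.0% in muscle, and the macrophage glycoprotein gene Cd68 47.2% and 0% over 6 cytosines.

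Endothelial genes had 4 ends higher and 2 lower of 21 measured. Both shares were above those over all gene ends, of which 3.94% were higher and 0.928% lower. Rasip1, a regulator of blood vessel lumens whose window overlaps that of its neighbour Mamstr, had 81.1% in P5_2iL_F and 13.1% in muscle. Angpt2, a ligand of the receptor TIE2, had 68.1% in P5_2iL_F and 9.17% in muscle, and Tie1, an endothelial receptor kinase, 59.7% and 22.9% over 6 cytosines. Nos3, endothelial nitric oxide synthase, had 84.0% in P5_2iL_F and 52.9% in muscle. Its strand pairs differed by 39.4 points on the plus strand and 9.87 on the minus strand. Eng, the TGF-beta coreceptor endoglin, had 7.24% in P5_2iL_F and 42% in muscle, but differed by -7.41 points on the plus strand and -20.6 on the minus strand of its strand pairs. Plvap, of endothelial fenestrae, had 14.3% in P5_2iL_F and 73.7% in muscle, but the window of 500 bp outside to 500 bp inside gave 46.7 points. Among erythroid and platelet genes 1 of 9 measured was higher, or 11.1%, beside 3.94% over all gene ends. This was the erythropoietin receptor gene Epor, with 63.5% in P5_2iL_F and 19.8% in muscle. The content of blood, vessel and muscle cells of the samples was not measured, and its part in these groups was not tested.

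**Figure D4:**
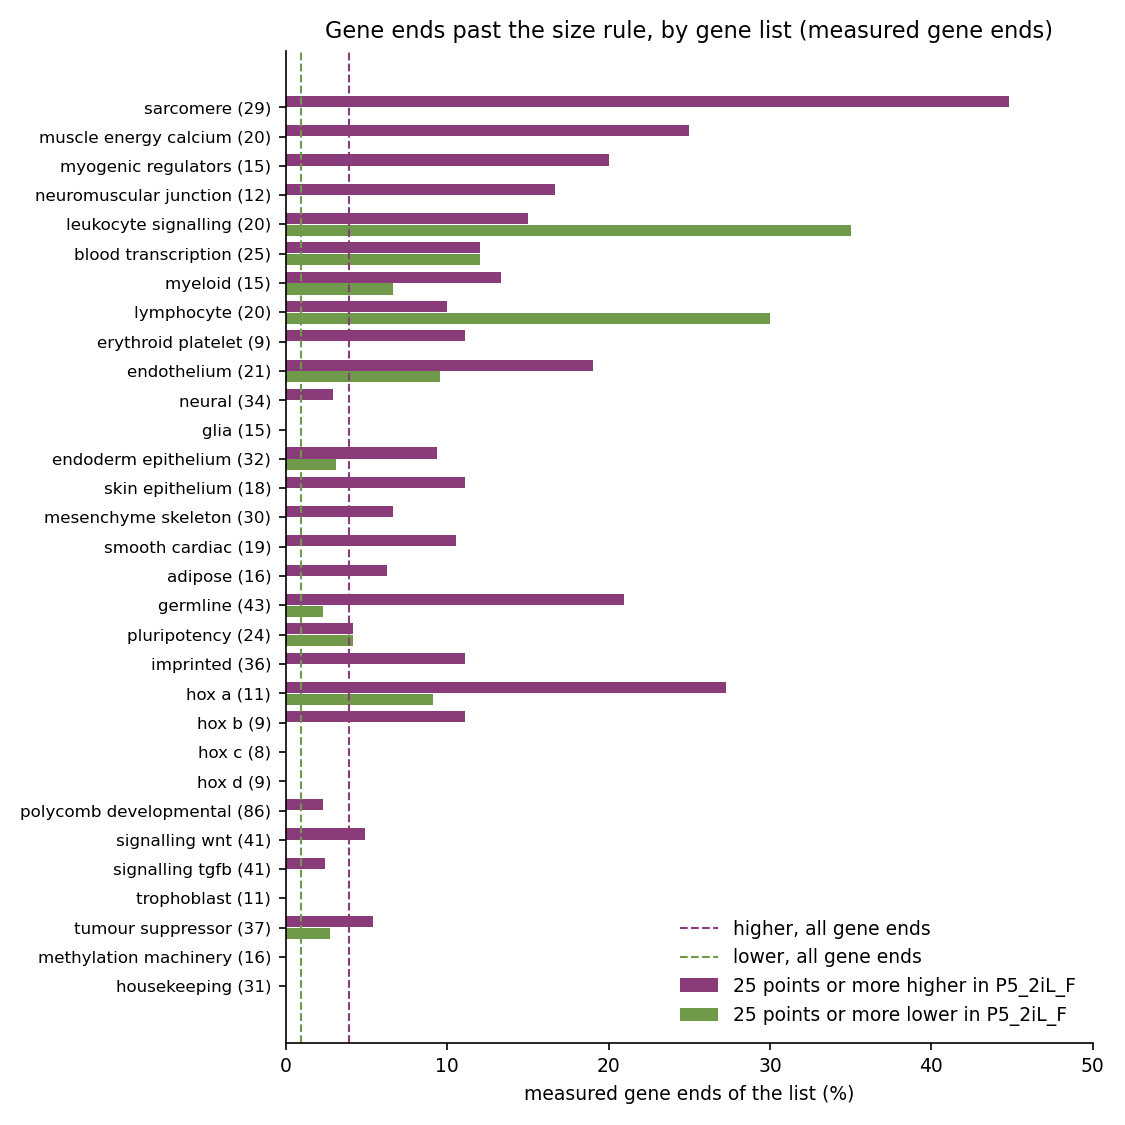
Share (%) of the measured gene ends of each list that were 25 points or more higher or lower in P5_2iL_F than in muscle, with the number measured in parentheses and the share over all gene ends as dashed lines. Sarcomere genes have the longest bar for higher ends, 13 of 29, and leukocyte signalling genes the longest for lower ends, 7 of 20.

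The muscle, blood and vessel lists above also cover tissues that a teratoma can form, and their share of higher ends reached 44.8%, for sarcomere genes. In the neural, glial, epithelial, skin, mesenchyme, smooth and cardiac muscle, fat and trophoblast lists, 0% to 11.1% of ends were higher. The share over all gene ends was 3.94%. Of 34 measured neural ends 1 was higher, or 2.94%, Rbfox3, the gene of the neuronal marker NeuN, with 87.6% in P5_2iL_F and 62.4% in muscle at its 3′ end. No glial end passed among 15. Of 32 endoderm and simple epithelium ends 3 were higher and 1 lower, or 9.38% and 3.12%. Krt7, a keratin of simple epithelium, had 86.3% in P5_2iL_F and 39.6% in muscle. The tight junction gene Cldn4 had 77.9% and 30.2%, and the intestinal factor Cdx1 47.5% and 12.3%. The strand pairs of Krt7 differed by 18.2 points on the plus strand and 69.2 on the minus strand. Lgals4, an intestinal lectin, had 32.4% in P5_2iL_F and 58.9% in muscle. Skin had 2 higher of 18, or 11.1%, Lypd3 and S100a16, and S100a16 had 72.6% in P5_2iL_F and 8.97% in muscle.

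Mesenchyme and skeleton had 2 higher of 30, or 6.67%, Clec3b, the plasminogen-binding tetranectin, with 71.6% in P5_2iL_F and 14.8% in muscle, and Thy1, with 85.4% and 56.7%. Smooth and cardiac muscle had 2 higher of 19, or 10.5%. Tagln, the smooth muscle protein transgelin, had 68.8% in P5_2iL_F and 5.26% in muscle, with 67.5% in P5_2iL, 18.4% in P5_a2iL_1 and 27.2% in P5_LCDM_1. Lmod1 had 74.0% in P5_2iL_F and 23.3% in muscle over its whole window. Fat had 1 higher of 16, Retn, the adipokine resistin, with 79.5% in P5_2iL_F and 42% in muscle. No end of 11 trophoblast genes passed.

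Germline genes, many of which are held off in body cells by methylation, had 9 ends higher and 1 lower of 43 measured, or 20.9% and 2.33%, beside 3.94% and 0.928% over all gene ends. The median level of the list was 87.9% in P5_2iL_F and 78.5% in muscle, with a median difference of 6.91 points. Besides Prm1, Stk31, a kinase of the testis, had 100% in P5_2iL_F and 56.5% in muscle. Tdrd6, a tudor protein of the chromatoid body, had 80.9% in P5_2iL_F and 31.6% in muscle, and the piRNA pathway gene Mov10l1 97.8% and 62.5%. Tnp2, a transition protein of sperm chromatin, had 64.3% in P5_2iL_F and 33.9% in muscle. Its strand pairs differed by 60 points on the plus strand and 13.6 on the minus strand. Dazl, an RNA-binding protein of germ cells, was high on both sides, at 94.9% in P5_2iL_F and 94.2% in muscle. The lower end was that of Dmrtb1, a factor of spermatogonia, with 25.7% in P5_2iL_F and 73.9% in muscle.

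Pluripotency genes had 1 end higher and 1 lower of 24, or 4.17% each, beside 3.94% and 0.928% over all gene ends. Zscan10, a zinc finger factor of embryonic stem cells, had 0.495% in P5_2iL_F, 1.95% in P5_2iL, 16.5% in P5_a2iL_1, 25.3% in P5_LCDM_1 and 55.5% in muscle at its 3′ end over 29 cytosines. Lefty1, an inhibitor of Nodal signalling, had 92.9% in P5_2iL_F and 42.6% in muscle. At Pou5f1, the gene of OCT4, the levels were 62.6% in P5_2iL_F and 56.6% in muscle, and at Sox2 1.72% and 0.705%.

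Imprinted genes are methylated on the copy of a single parent, so levels near the middle are usual at their control regions. Of 36 measured ends 4 were higher and none lower, or 11.1% higher, beside 3.94% over all gene ends. Over its whole window Mcts2 had 89.6% in P5_2iL_F, 97.4% in P5_2iL, 82.4% in P5_a2iL_1, 33.2% in P5_LCDM_1 and 30.6% in muscle. Nap1l5 had 70.6% in P5_2iL_F and 41.9% in muscle. Peg10 and Sgce, which share a start region, had the same 49 cytosines, at 38.5% in P5_2iL_F and 13.1% in muscle. Their strand pairs differed by 17.7 points on the plus strand and 13.8 on the minus strand, and those of Nap1l5 by 21.3 and 14.2. Peg3 had 27.7% in P5_2iL_F and 42.8% in muscle and did not pass.

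Polycomb-regulated developmental factors outside the Hox clusters had 2 ends higher and none lower of 86, or 2.33% higher, beside 3.94% over all gene ends. Lhx6, a factor of interneurons, had 66.8% in P5_2iL_F and 13.2% in muscle at its 3′ end. Hesx1, a factor of the forebrain and pituitary, had 30.8% in P5_2iL_F and 0% in muscle over 13 cytosines, and 0.769% in P5_2iL, 0% in P5_a2iL_1 and 0.855% in P5_LCDM_1. The Hesx1 difference was 0 points on the plus strand and 60 on the minus strand. Of the 13249 gene ends with 10 or more shared cytosines and 5 or more in each other teratoma, Hesx1 was the 1 end at which P5_2iL_F stood 25 points or more above muscle and above each other teratoma, and no end stood as far below all of them.

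Among signalling genes, 2 Wnt ends of 41 and 1 Nodal, TGF-beta and BMP end of 41, that of Lefty1, were higher, and none was lower. As shares of higher ends these were 4.88% and 2.44%, beside 3.94% over all gene ends. Axin2, a target and inhibitor of Wnt signalling, had 59.0% in P5_2iL_F and 7.08% in muscle. The Wnt antagonist Dkk3 had 41.9% in P5_2iL_F and 3.98% in muscle. Of 37 tumour suppressor ends 2 were higher and 1 lower, or 5.41% and 2.70%. They were Dkk3, Runx3 and Gstp2, a glutathione transferase with 93.8% in P5_2iL_F and 59.1% in muscle. No end of 16 genes of the methylation machinery and none of 31 genes used in every cell passed, with median differences of 0.05 and 0.06 points.

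The Hox clusters held long stretches of called tiles. Called tiles of the same direction at most 5 kb apart were joined, which gave 977 higher and 64 lower stretches of 3 or more tiles, holding 12.8% of higher and 4.23% of lower tiles. The level of a stretch is the mean of all shared cytosines in it, including those of tiles between the called ones. A higher stretch over Hoxa3 to Hoxa6 (chr6:52184001-52206000) held 11 called tiles, the highest number, which Hspg2 shares, at a mean of 66.9% in P5_2iL_F and 23.8% in muscle. In the whole HoxA cluster 17 of 59 tiles were higher and 4 lower, which is 28.8% and 6.78%, beside 14.8% and 2.77% over all tiles. All 17 higher tiles began within the first 50.1 kb of the cluster, and 3 of the 4 lower tiles lay between 69.1 and 86.1 kb, near Hoxa9 to Hoxa11. Of 11 measured HoxA gene ends 3 were higher and 1 lower, or 27.3% and 9.09%, beside 3.94% and 0.928% over all gene ends. Hoxa5 had 74.8% in P5_2iL_F and 27.4% in muscle, and Hoxa6, whose window overlaps it, 78.8% and 24.7%. Hoxa2, which lies within the first 50.1 kb, went the other way, with 0% in P5_2iL_F and 27.2% in muscle.

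The HoxD cluster ran the other way, with 2 of 47 tiles higher and 10 lower, or 4.26% and 21.3%, and a mean of 16.1% in P5_2iL_F and 24.9% in muscle. A stretch of 5 lower tiles covered Hoxd3 and Hoxd4, at 19.6% in P5_2iL_F and 47.5% in muscle. HoxB had 13 higher and 4 lower tiles of 69, or 18.8% and 5.80%, and HoxC 1 higher and 4 lower of 54, or 1.85% and 7.41%. The higher share of HoxB is near the 14.8% over all tiles. Of the gene ends of HoxB, that of Hoxb6 was higher, with 67.3% in P5_2iL_F and 8.53% in muscle, but the window of 500 bp outside to 500 bp inside gave -3.31 points. No gene end of HoxC or HoxD passed.

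**Figure D5:**
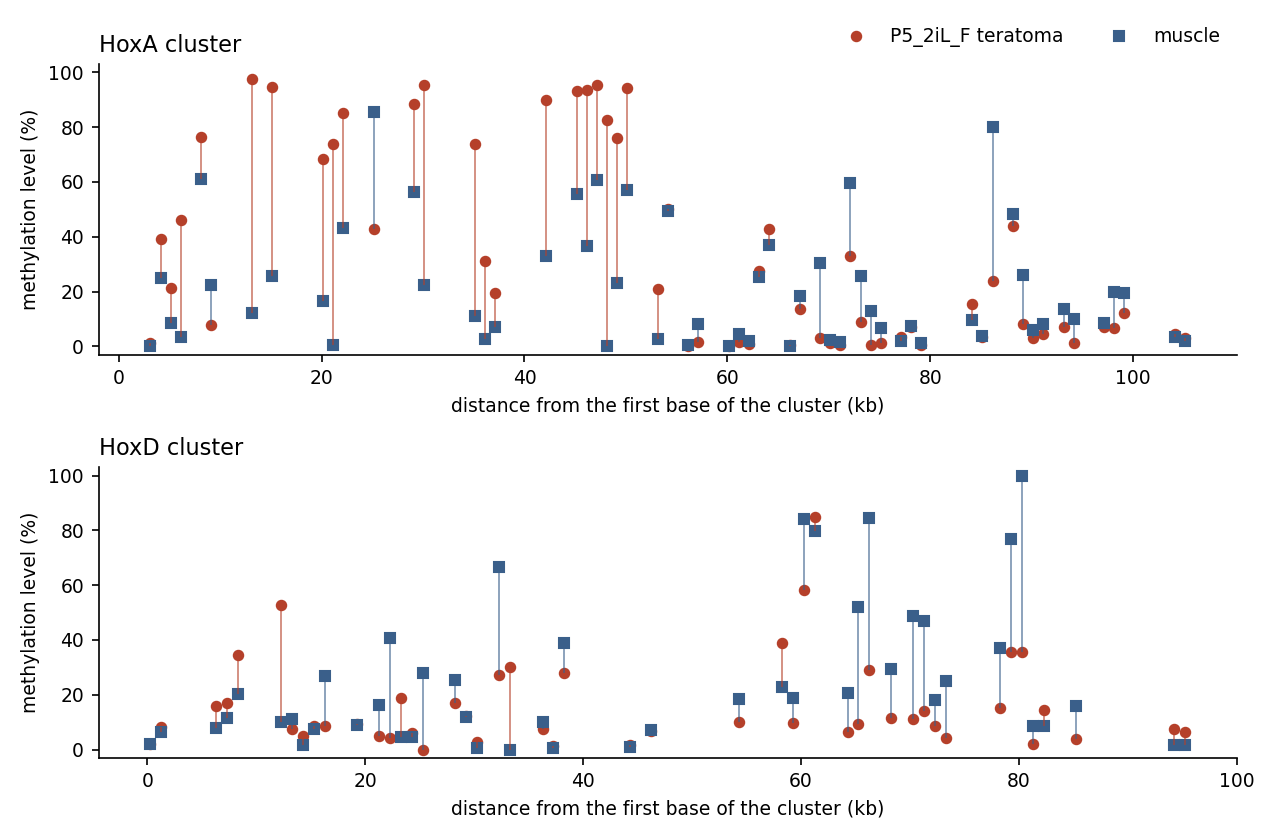
Methylation level (%) of each 1 kb tile in P5_2iL_F and muscle across the HoxA and HoxD clusters, by distance in kb from the first base of the cluster. Vertical lines join the libraries, in the colour of the higher one. P5_2iL_F lies above muscle over much of the first 50.1 kb of HoxA and below it over the stretch of HoxD that holds Hoxd3 and Hoxd4.

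The other higher stretches with the most called tiles lay over genes outside the Hox clusters. Hspg2, the basement membrane proteoglycan perlecan, held 11 tiles at 75.5% in P5_2iL_F and 23.9% in muscle. Jak3, the kinase of the common gamma chain receptors, held 9 tiles together with Insl3, at 92.8% in P5_2iL_F and 24.9% in muscle (chr8:71679001-71691000). Cyp26a1 and Cyp26c1, the enzymes that break down retinoic acid, shared a stretch of 9 tiles with Exoc6 at 49.7% in P5_2iL_F and 22.8% in muscle. Synpo, an actin-associated protein, held 9 tiles at 79.7% in P5_2iL_F and 34.1% in muscle.

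The lower stretch with the most called tiles covered Lyl1, a blood stem cell factor, and part of Nfix, with 6 tiles at 3.73% in P5_2iL_F and 41.2% in muscle (chr8:84701001-84708000). The 3′ end of Lyl1 itself had 2.04% in P5_2iL_F and 30.9% in muscle. A stretch at Tbx3, a T-box factor of limb and heart, had 14.6% in P5_2iL_F and 45.2% in muscle over 5 tiles. A stretch at Irx3 had 8.64% in P5_2iL_F and 19.7% in muscle with 4 called tiles. Camk2b, a calcium-dependent kinase of neurons and muscle, had 34.3% in P5_2iL_F and 89.4% in muscle over 4.

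Few tiles with many shared cytosines passed. All 5 of the higher ones with the most cytosines lay inside the bounds of a gene, its start included. So did 4749 of all 5861 tiles with 80 or more shared cytosines. A tile in Snx20, the gene of a sorting nexin that binds the selectin ligand of leukocytes, held 170 cytosines at 72.0% in P5_2iL_F and 2.84% in muscle. A tile in Casz1, a zinc finger factor, had 86.7% in P5_2iL_F and 35.9% in muscle over 138. A tile 191 bp from the start of Tcfl5 had 40.8% in P5_2iL_F and 6.15% in muscle over 178, and tiles in Kcnk12 and Rbmxl2 had 41.2% and 56.4% in P5_2iL_F and 2.65% and 18% in muscle. Lower dense tiles lay in Zfp316, Foxo6 and Tnxb. That in Foxo6, a forkhead factor, had 5.17% in P5_2iL_F and 33.2% in muscle. A pair of adjoining tiles at chr17:39845001-39847000 had 17.7% and 15.3% in P5_2iL_F and 44% and 42.3% in muscle. The annotation places the ribosomal RNA sequence Rn18s-rs5 at the right-hand tile. Ribosomal RNA genes have many near-identical copies that short reads cannot tell apart, so these values are uncertain.

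Of the 13060 gene bodies, 476 were higher in P5_2iL_F, which is 3.64%, and 53 were lower, which is 0.406%. The median body difference was 4.98 points, above the 0.23 points of gene ends. Short bodies were called more often, with 5.82% higher under 10 kb and 0.609% at 200 kb or more, while the mean difference was 5.22 points under 10 kb and 8.22 at 200 kb or more. Of the 243 higher bodies whose start was measured, 173 had a start under 10% in both libraries, which is 71.2%, beside 82.7% of all 7613 bodies with a measured start. Of the 363 higher bodies with a measured end, 42 had a higher end, which is 11.6%, beside 372 of 10610 bodies, or 3.51%, over all bodies with a measured end.

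The higher bodies with the largest differences included several genes of blood and vessel cells. By list, 1 of 23 measured endothelial bodies was higher, 4 of 27 of leukocyte signalling and 3 of 23 myeloid. Of 9 erythroid and platelet bodies 2 were higher, and none of 21 lymphocyte or 29 blood transcription bodies. Over all bodies 3.64% were higher. Rasal3, a Ras inhibitor of lymphocytes, had 90.9% in P5_2iL_F, 88.8% in P5_2iL, 52.6% in P5_a2iL_1, 38.4% in P5_LCDM_1 and 16% in muscle over 175 cytosines. Jak3 had 92.7% in P5_2iL_F and 25% in muscle over 201, with its gene end apart by 0.21 points. Ccm2l, of endothelial cells, had 89.1% in P5_2iL_F and 20.5% in muscle. Rgs14, a regulator of G proteins, had 95.8% in P5_2iL_F and 20.7% in muscle, and Lgi4, a secreted protein of Schwann cell development, 95.2% and 24.9%. Spon2, 4930404N11Rik and the body of Snx20 were the others, with 85.0%, 94.1% and 72.0% in P5_2iL_F and 10%, 7.62% and 2.84% in muscle. The 170 cytosines of the Snx20 body are those of its dense tile.

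The 8 lower bodies with the largest differences included immune genes. Over the lists, 1 of 27 measured bodies was lower and 4 higher for leukocyte signalling. For lymphocytes 1 of 21 was lower and none higher, and for myeloid cells 2 of 23 were lower and 3 higher. Over all bodies 0.406% were lower and 3.64% higher. Il12a, a chain of interleukin 12, had 8.11% in P5_2iL_F, 0.523% in P5_2iL, 16.1% in P5_a2iL_1, 47.1% in P5_LCDM_1 and 76.7% in muscle over 36 cytosines. S1pr4, a sphingosine phosphate receptor of lymphoid cells, had 1.58% in P5_2iL_F and 61.0% in muscle. Cd3d, a chain of the T cell receptor complex, had 0% in P5_2iL_F and 38.5% in muscle over 22. Spn, the leukocyte sialophorin CD43, had 34.4% in P5_2iL_F and 79.7% in muscle, and the interferon-induced GTPase gene Ifi47 3.83% and 52.6%. Bloc1s2, Srp68 and Hoxb5 were the others, with 13.9%, 25.3% and 8.27% in P5_2iL_F and 61.4%, 70.9% and 51.5% in muscle.

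Windows of 1 kb on each side of microRNA hairpins were measured for 406 of 1005 annotated hairpins. Of these, 51 were higher in P5_2iL_F, which is 12.6%, and 9 were lower, which is 2.22%. These shares are near those of the tiles. Neighbouring hairpins share cytosines, and the called windows hold 45 higher and 8 lower distinct sets. The mature strands of some well-known microRNAs with called windows, chosen after their values were seen and not by the size of the difference, are given 5′ to 3′ from RefSeq on GRCm38.p6, with the seed, bases 2 to 8, in capitals.

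mmu-miR-142a-3p: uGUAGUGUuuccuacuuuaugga
mmu-miR-142a-5p: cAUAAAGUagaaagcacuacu
mmu-miR-26a-5p: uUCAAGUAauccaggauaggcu
mmu-let-7c-5p: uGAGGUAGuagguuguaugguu
mmu-let-7e-5p: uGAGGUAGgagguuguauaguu
mmu-miR-125a-5p: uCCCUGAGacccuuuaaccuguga
mmu-miR-322-5p: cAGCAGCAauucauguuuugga
mmu-miR-503-5p: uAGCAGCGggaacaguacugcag
mmu-miR-290a-3p: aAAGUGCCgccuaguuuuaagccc
mmu-miR-33-5p: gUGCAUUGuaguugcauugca
mmu-miR-182-5p: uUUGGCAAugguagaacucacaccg

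Mir142, a microRNA of blood cells, had the lowest window relative to muscle (chr11:87755864-87757927). Its 17 cytosines averaged 4.92% in P5_2iL_F, 1.93% in P5_2iL, 24% in P5_a2iL_1, 33.4% in P5_LCDM_1 and 77.0% in muscle, and the window overlaps that of the Tspoap1 gene end. Mir33, which lies within the gene of a sterol regulator, had 27.5% in P5_2iL_F and 67.5% in muscle. Mir182, of sensory cells, had 27.8% in P5_2iL_F and 64.4% in muscle over 6 cytosines.

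On the higher side, Mir26a-1 had 92.4% in P5_2iL_F, 97.5% in P5_2iL, 85.6% in P5_a2iL_1, 32.0% in P5_LCDM_1 and 16.5% in muscle over 29 cytosines. The let-7 members printed share the seed GAGGUAG, and the windows of 2 of their loci were higher. Mirlet7c-2 had 69.4% in P5_2iL_F and 23.4% in muscle, and Mirlet7e, whose window holds the same cytosines as that of Mir125a, had 89.6% and 42.7%. Mir322 and Mir503, which share a window on the X chromosome, had 88.2% in P5_2iL_F and 35.8% in muscle over 8 cytosines. Mir290a, the first hairpin of a cluster of embryonic stem cells, had 69.5% in P5_2iL_F and 42.4% in muscle, and the next hairpins, Mir291b and Mir292, had 74.9% and 52.2% and did not pass.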

How the data were processed

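Per the labels, DNA was extracted with a column kit, and libraries were amplified by 15 cycles of PCR, selected by size on a gel and sequenced on an Illumina Genome Analyzer. The submitters' processing notes name mm10 as the build and Bismark and Trim Galore (0.6.4) as tools. The authors deposited the percent methylation of single cytosines with no read counts, so no coverage minimum or interval could be set. All 339374 listed positions inside RefSeq promoters of GRCm38.p6 fell on a CG. Here, equal-weight window means were computed with Python 3.11.15, NumPy 2.4.6 and pandas 2.3.3, with differences rounded to 3 decimals. No test was made. The windowing was checked on simulated data. Distances to starts and promoters were not used on chromosome 18. On the other chromosomes, genes with no strand in the promoter reference had no start in these distances. Members and lists were chosen with earlier results of these data known. The text names the 10 largest gene ends a direction under the strand rule, the 5 largest called ends of each list a direction, 8 bodies, 5 stretches and 5 dense tiles a direction. Named after their values were seen were the microRNA windows, genes that did not pass, and the further called ends Itgal, Vav1, Vpreb3, Tnni1, Smpx, Tcap, Hspb7, Myh4, Csrp3, Tpm3 and Mylk2.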

Additional observations from a re-analysis of the deposited data

Results flagged for a closer look

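Cytosines on contigs not placed on a chromosome were left out of the comparison. Over the 2409 of them listed in both libraries, the mean level was 77.1% in P5_2iL_F and 73.2% in muscle, a difference of 3.96 points. No test was made.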

How the results depend on the processing

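With 1 library a side no replicate could be left out, and a coverage minimum could not be tried because the files hold no read counts. No paired analysis was possible because each side has 1 library. With a minimum of 3 cytosines, 8193 tiles were lower, and 897 gene bodies were higher and 131 lower. With a minimum of 10, 12662 tiles were higher and 2211 lower, 82 gene ends were lower and 91 bodies were lower. At 20 points, 894 bodies were higher and 92 lower. At 40 points, 12577 tiles, 257 gene ends and 94 bodies were higher, and 2166 tiles, 69 gene ends and 7 bodies were lower. With equal weight for each CpG, 35 bodies were lower. On the plus strand of strand pairs, 9461 tiles, 336 gene ends and 265 bodies were higher, and 1994, 77 and 27 were lower. On the minus strand, 9477, 357 and 254 were higher, and 1979, 77 and 26 were lower. Windows at annotated starts gave 326 higher ends. Bodies with 40 or more cytosines, an alternative chosen after seeing the data, gave 282 higher and 22 lower. The mean difference was 6.20 points on autosomes, 6.22 over cytosines of all 5 libraries, 6.23 with equal weight for each CpG and 8.28 with equal weight for each tile. By density within 100 bp it was 10.05 points in the lowest class and 0.891 in the highest. With a window of 500 bp outside to 500 bp inside, Cbfa2t3 gave -29.4 points, Hoxb6 -3.31 and Plvap 46.7, and the cause was not tested. Of 72 named gene ends measured on single strands, 13 missed 25 points on the plus strand and 10 on the minus strand. Named ends not marked above that missed it on 1 strand of their strand pairs include Jph2, Mylk2, Myh4, Tie1, Cldn4 and Lgals4. Higher windows outnumbered lower ones under every setting given here in both directions. Read depth limits every value to an unknown degree.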

Other observations

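Further gene ends with 25 points or more on each strand, named after their values were seen, included other muscle and immune genes. Popdc2, a membrane protein of striated muscle, had 83.4% in P5_2iL_F, 88% in P5_2iL, 75.9% in P5_a2iL_1, 75.2% in P5_LCDM_1 and 19.6% in muscle over 26 cytosines. Krtdap, of differentiating keratinocytes, had 86.0% in P5_2iL_F and 22.5% in muscle. Ccl4, a chemokine gene, had 18.6% in P5_2iL_F and 72.6% in muscle, and Cd27, a costimulatory receptor of lymphocytes, had 18.6% and 65.3%. P2rx1, an ATP-gated channel of platelets and smooth muscle, had 11.02% in P5_2iL_F and 61.2% in muscle. No test was made of any of these differences.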
